A study of Homo sapiens with 66 samples.

Results

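The metallothionein genes MT1E, MT1F, MT1G, MT1X and MT2A and MTF1, the gene of the zinc-sensing transcription factor that acts on them, were followed across 11 acute myeloid leukaemia (AML) cell lines. They were found by symbol among the 57992 genes of the series, of which they are 6, and each of the 6 had reads. RNA-seq was done on F36P, HL60, KASUMI1, MOLM13, MONOMAC6, MV411, NB4, NOMO1, OCIAML2, OCIAML3 and THP1 cells. Each line was kept without the drug (untreated) or exposed for 24 h to etoposide, a poison of DNA topoisomerase II. The drug was given at each line's own IC50. The dose thus differed between lines and cannot be told apart from the line where responses are compared. Culture differed between lines too. The share of serum was not the same in all of them. F36P was given granulocyte-macrophage colony stimulating factor, and MONOMAC6 insulin, pyruvate and amino acids. Culture conditions therefore cannot be told apart from the line, in untreated levels or in responses. Each of the 22 groups has 3 libraries, which makes 66 in all.

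Each line is an established culture that stands for itself only. The RNA of a library came from 3 pooled wells, and the study speaks of biological replicates in general. The labels do not say whether the 3 libraries of a group came from separate cultures, and p-values measure the spread between these libraries. In such bulk samples, fewer cells of a kind and less RNA per cell cannot be told apart. The study set aside the etoposide libraries of OCIAML2 because of the quality of their raw reads, and that line is therefore described apart, except for its untreated level.

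Reads on genes numbered 17997404 to 24101670 per library, with a median of 20241014. CDKN1A, a target of p53 that etoposide is known to raise, was called higher in each of the 10 other lines, and MDM2, another p53 target, in 3 of them. Of 7 myeloid and leukocyte markers, all 7 reached 1 CPM (counts of a gene scaled to one common library total) in 9 untreated lines, 6 did in HL60 and 4 in F36P. F36P was the line with all 6 erythroid and megakaryocytic markers at 1 CPM or more, and their sum was 5403 to 7439 CPM per library against at most 40.5 CPM in any other line. The 3 T cell markers summed to 147 to 175 CPM in NOMO1 and to at most 6.60 CPM elsewhere, and the B cell and the stromal and epithelial markers to at most 16.7 and 89.4 CPM, both in KASUMI1. The part of these markers in the results was not tested.

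Metallothioneins are small, cysteine-rich proteins that hold zinc and copper in the cytosol and bind toxic metals such as cadmium. MTF1 senses free zinc, enters the nucleus and binds short metal response elements upstream of metallothionein genes and of SLC30A1, a zinc exporter of the plasma membrane. In blood cells, as in many others, metallothionein genes are known to respond to zinc, to glucocorticoids and to inflammatory cytokines. MT2A is the member most widely expressed in human tissues, and the MT1 genes are its close paralogs.

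The metallothionein members lie in a cluster on chromosome 16 in GRCh38 (gencode release 44), with other metallothionein genes and pseudogenes between them. MT2A is at chr16:56608584-56609497, MT1E at chr16:56625475-56627112, MT1F at chr16:56657731-56660698, MT1G at chr16:56666730-56668065 and MT1X at chr16:56682470-56684196. MT1G is on the minus strand and the others are on the plus strand. MTF1 is at chr1:37809574-37859592, on the minus strand. The paralogs are near-identical in their coding parts, so reads that match several of them may be left out or misplaced, and each metallothionein value is uncertain to that extent. MT1X also shares its strand with an overlapping long noncoding RNA, and a processed pseudogene lies within MTF1 on the other strand.

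The upstream sequences of 2 members are shown because these are the metallothioneins among them with a promoter entry, and both fell in several lines. Of the 6 members, 3 have an entry in the RefSeq promoter table (GRCh38.p14), namely MT2A, MT1X and MTF1. The core of a metal response element was searched as TGCACNC or TGCGCNC on both strands, with overlaps counted, and matches are in capitals. The 250 bases before the start of MT2A (chr16:56608334-56608583, plus strand) and of MT1X (chr16:56682220-56682469, plus strand) read as follows.
MT2A: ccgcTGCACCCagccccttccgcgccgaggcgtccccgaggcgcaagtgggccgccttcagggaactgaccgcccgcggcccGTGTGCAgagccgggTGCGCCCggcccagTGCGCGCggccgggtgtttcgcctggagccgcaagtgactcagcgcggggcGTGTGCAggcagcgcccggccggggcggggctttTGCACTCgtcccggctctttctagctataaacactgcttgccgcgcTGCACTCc
MT1X: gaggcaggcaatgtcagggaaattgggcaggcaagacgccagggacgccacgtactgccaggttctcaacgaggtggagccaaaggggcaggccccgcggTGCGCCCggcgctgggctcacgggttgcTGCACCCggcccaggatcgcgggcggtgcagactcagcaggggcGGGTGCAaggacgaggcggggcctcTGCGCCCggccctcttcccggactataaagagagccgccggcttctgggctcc

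MT2A had 7 matches in these 250 bases and MT1X had 4. In the whole window of 300 bases, which runs 50 bases past the start, MT2A had 8 and MT1X 4. Among the 35116 promoters of the table, 29.6% held a match and 0.601% held 4 or more, while 0.0199% held at least 8. The form TGCGCNC holds a CpG (C followed by G), and these windows are rich in CpG. MT2A had 37 and MT1X 26, as many as in 11.3% and 30.1% of promoters, where the median was 14. Promoters of like CpG content were not compared. The window of MTF1 held no match. Among the other metallothionein genes in the table, MT1H had 8 matches, and MT1B and MT4 had 3 each. A match is a run of letters and not a shown binding site.

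**Figure D1:**
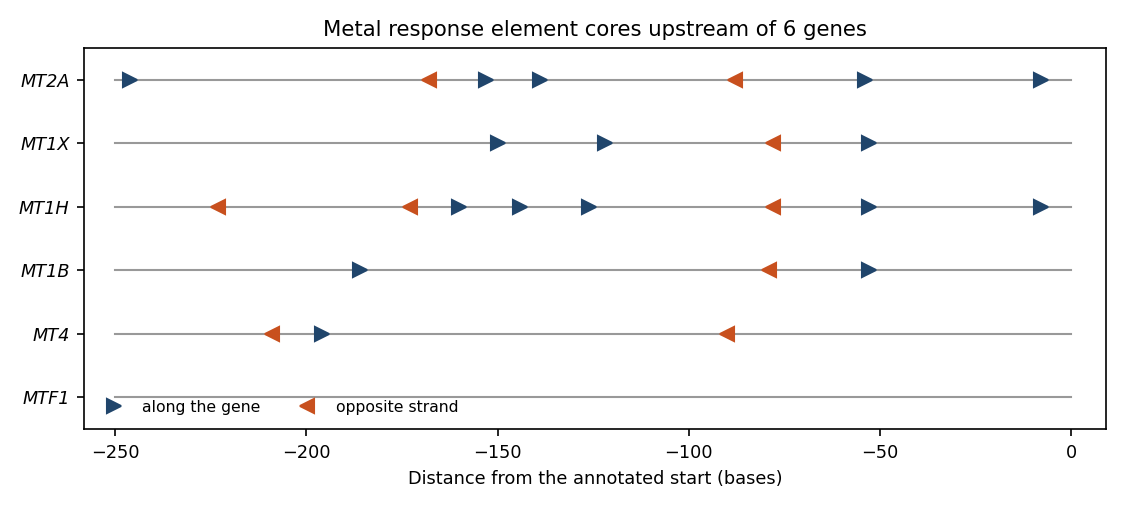
Positions of metal response element cores in the 250 bases before the annotated start of 6 genes (horizontal axis, bases from the start); triangles point along the gene (blue) or against it (orange). MT2A has 7 cores, MT1X 4, MT1H 8, MT1B and MT4 3 each, and MTF1 none.

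The first question was how the members stood in untreated cells. The level of every member differed between the 11 lines (edgeR quasi-likelihood F-test, adjusted p from 2.75e-36 for MT1G to 4.25e-20 for MTF1), as did that of 99.4% of all genes tested. The metallothioneins varied far more than MTF1. NOMO1 was the highest line for each of the 5 metallothioneins and the lowest for MTF1. Lines next to each other in the order are called different below only where the pair passed an adjusted p of 0.05, which 66.8% of all gene tests over the 55 pairs of lines did.

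MT2A was present in every line. Its untreated level was 177, 184 and 217 CPM in the NOMO1 libraries, a mean of 193 ± 21.2 CPM (SD, n = 3). NB4 followed with 99.2, 139 and 147 CPM, KASUMI1 with a mean of 63.8 ± 5.59 CPM and HL60 with 43.2 ± 4.59 CPM, and each of these steps down the order passed the test. MOLM13 (33.1 ± 2.77 CPM) and OCIAML3 (31.2 ± 8.10 CPM) overlapped, as did MV411 (16.5 ± 2.19 CPM) and F36P (14.9 ± 1.31 CPM). THP1 (21.0 ± 0.324 CPM) lay above MV411 without overlap but just missed the test (adjusted p = 0.0502).

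The lowest levels of MT2A were those of MONOMAC6, with 4.76, 5.64 and 6.37 CPM, and of OCIAML2, with 3.76, 2.29 and 3.81 CPM. These lines differed from each other (log2 difference 0.76, adjusted p = 0.00255). OCIAML2 and OCIAML3 share a name but not a level, since the libraries of OCIAML3 held 22.3, 38.2 and 33.1 CPM.

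MT1X, a further member measured in every line, ran from 30.9, 34.2 and 33.5 CPM in NOMO1 to 1.56, 1.03 and 0.761 CPM in F36P. MOLM13 (22.3 ± 0.644 CPM) and OCIAML3 (20.1 ± 1.15 CPM) came next, without overlap but also without passing the test (adjusted p = 0.356). From NB4 (9.86 ± 3.68 CPM) through THP1, KASUMI1, HL60 and MONOMAC6 to OCIAML2 (3.92 ± 0.107 CPM) no neighbour passed the test against the next. F36P stood below OCIAML2 (log2 difference 1.82, adjusted p = 6.04e-08).

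MT1E, MT1F and MT1G were below 1 CPM in the same 4 lines, HL60, NB4, KASUMI1 and F36P, except for MT1F in NB4. MT1E had no read in any library of HL60 or NB4, which allows at most 0.0515 and 0.0503 CPM in their untreated groups, for counting error only. It was at 0.558 ± 0.162 CPM in KASUMI1 and 0.432 ± 0.209 CPM in F36P. MT1G had no read in untreated HL60 and 1 read in untreated NB4, with 0.741 ± 0.0858 CPM in KASUMI1 and 0.106 ± 0.0492 CPM in F36P. MT1F had no read in untreated KASUMI1 and 7 in untreated HL60, while its NB4 libraries held 4.95, 4.95 and 6.17 CPM.

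The other 7 lines held more than 1 CPM of each of these genes, apart from MT1G in OCIAML2. MT1E was highest in NOMO1, with 91.8, 104 and 110 CPM, and MOLM13 (64.7 ± 1.28 CPM), OCIAML3 (61.6 ± 2.77 CPM), THP1 (57.0 ± 2.41 CPM) and MV411 (52.7 ± 2.32 CPM) formed a run in which no neighbour passed the test against the next. OCIAML2, with 18.8, 17.2 and 16.0 CPM, and MONOMAC6, with 5.55, 5.64 and 4.48 CPM, were steps below (log2 differences 1.60 and 1.73). MT1G was highest in NOMO1, with 113, 111 and 123 CPM, then in MOLM13 (75.3 ± 5.47 CPM), OCIAML3 (48.7 ± 1.15 CPM), MV411 (38.6 ± 3.01 CPM), THP1 (14.6 ± 0.404 CPM) and MONOMAC6 (2.93 ± 0.0870 CPM), and each of these differed from the next. OCIAML2 had MT1E without MT1G, since its MT1G libraries held 0.476, 0.305 and 0.609 CPM. MT1F was highest in NOMO1, with 74.6, 77.7 and 86.2 CPM, and lay between 22.7 and 37.5 CPM in THP1, MOLM13, MV411 and OCIAML3, where no neighbour passed the test against the next.

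**Figure D2:**
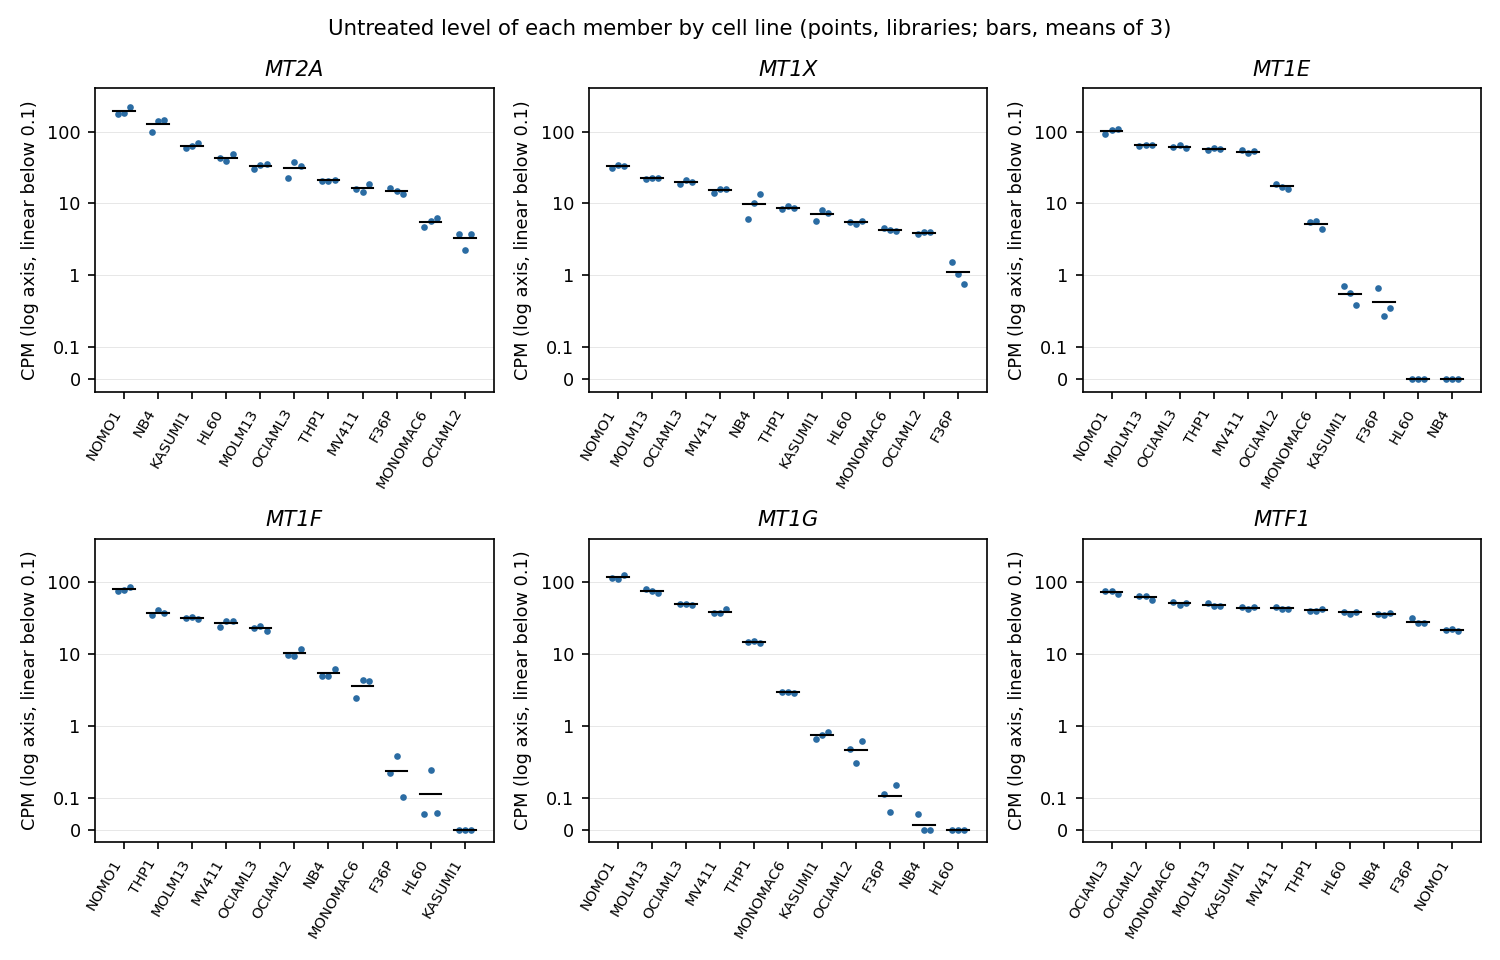
Untreated level of each member in the 11 lines (vertical axis, CPM on a log axis that is linear below 0.1), with lines ordered by their mean within each panel; points are the 3 libraries and bars their mean. Each metallothionein peaks in NOMO1, MT1X at 34.2 CPM and MT2A at 217 CPM in the highest library, while MTF1 stays between 20.5 and 74.1 CPM.

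Compared per kilobase of summed exon length, the metallothioneins made up their total in different ways. MT2A held 94.2% of the summed CPM per kilobase in NB4, 93.6% in HL60, 92.5% in KASUMI1 and 92.5% in F36P. It held 12.6% to 40.3% in the other 7 lines, where MT1E, MT1F and MT1G together held 55.7% to 81.2%. MT2A was the highest member per kilobase in 6 lines, MT1G in MOLM13, MV411 and OCIAML3, and MT1E in OCIAML2 and THP1. With the length of the canonical transcript in place of all exons, MT2A was again highest in 6 lines, but MT1F took the place of MT1E in OCIAML2 and THP1. The sum of the 5 genes, in CPM, ran from 16.8 ± 1.91 in F36P to 523 ± 42.4 in NOMO1 (SD, n = 3).

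**Figure D3:**
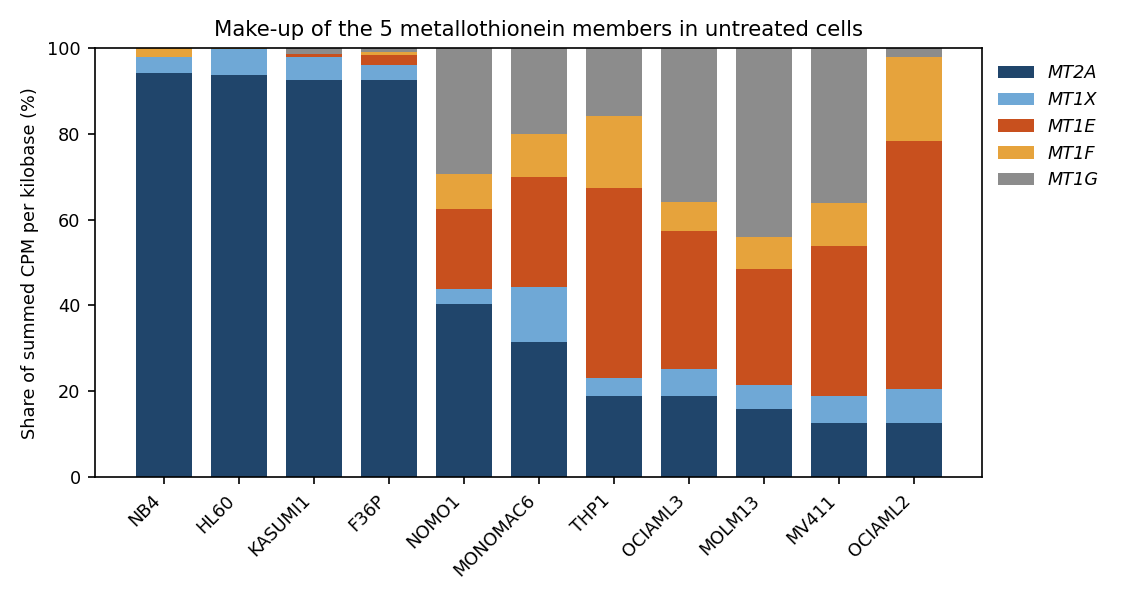
Share of each of the 5 metallothionein members in their summed CPM per kilobase (vertical axis, %) in untreated cells of the 11 lines, from line means of 3 libraries. MT2A fills 92.5% or more of the bar in NB4, HL60, KASUMI1 and F36P, and at most 40.3% in the other lines.

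MTF1 followed another order. Its untreated libraries held 74.1, 73.7 and 67.7 CPM in OCIAML3, 63.2, 63.3 and 56.2 CPM in OCIAML2 and 52.9, 48.5 and 51.1 CPM in MONOMAC6, and OCIAML3 differed from OCIAML2 and OCIAML2 from MONOMAC6. From MONOMAC6 down through MOLM13, KASUMI1, MV411, THP1 and HL60 to NB4 (35.8 ± 1.24 CPM) no neighbour passed the test against the next. F36P held 31.1, 26.5 and 26.6 CPM and NOMO1 held 21.7, 22.2 and 20.5 CPM, each below the line before (log2 differences 0.35 and 0.38). Over the 11 line means of log2(CPM + 1), Pearson's r between MTF1 and the metallothioneins was −0.57 for MT2A and between −0.01 and 0.17 for the 4 MT1 genes. Among the metallothioneins, r was 0.86 to 0.93 within MT1E, MT1F and MT1G, 0.56 between MT2A and MT1X, and −0.07 to 0.22 between MT2A and these 3 genes. These r describe 11 lines whose values share libraries and scaling.

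The second question was how the members changed after etoposide. Below, a gene rose or fell where its adjusted p was below 0.05 in the edgeR quasi-likelihood test of its line, and it was called where its fold change was also above 2. Of 60 pairs of a member and 1 of the 10 lines, 53 passed the filter on low counts. Metallothioneins fell more often than they rose. Over the 53 pairs, 13 were called lower, against 3.96% of all pairs of a gene and a line, and 4 were called higher, against 11.1%. With no limit on the fold change, 28 were lower, against 24.4% of all pairs, and 6 were higher, against 27.7%. MTF1 made up 10 of the 53 pairs, with 0 of the calls, 2 of the 28 lower and 2 of the 6 higher. The median log2 fold change was −0.49 over the 53 pairs and 0.01 over all genes and lines. Of the 17 called pairs, 3 passed the filter only through the group in which they were higher, MT1E and MT1F in F36P and MT1G in KASUMI1, and so had to differ, which leaves 2 called higher and 12 called lower. The counts with no fold limit, the medians and the shares over all genes still hold pairs of this kind.

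MT2A fell in 5 lines and rose in 1. In NOMO1 the untreated libraries held 198, 205 and 243 CPM and the etoposide libraries 84.8, 86.0 and 91.5 CPM. The groups lay far apart, and MT2A fell 2.46-fold (log2 fold change −1.30 ± 0.09, SE, adjusted p = 7.16e-07). In KASUMI1 it went from 59.3, 62.3 and 69.3 CPM to 26.6, 38.1 and 30.2 CPM, a 2.01-fold fall at the limit of a call (−1.01 ± 0.13, adjusted p = 0.000132), and with library size alone as the scaling the log2 fold change was −0.84. It was also under the limit without untreated replicate 3 (−0.94), etoposide replicate 1 (−0.90) or etoposide replicate 3 (−0.98). It also fell, by less, in MOLM13 (−0.66 ± 0.12), MONOMAC6 (−0.64 ± 0.13) and NB4 (−0.57 ± 0.21).

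In CPM, NB4 was the line with the widest spread of MT2A. Its untreated libraries held 104, 146 and 156 CPM and its etoposide libraries 58.9, 84.9 and 129 CPM. The groups overlapped, and MT2A was lower after etoposide in each of the 3 pairs of libraries with the same replicate number. OCIAML3 was uneven too, with 22.5, 37.9 and 33.8 CPM before and 20.7, 6.53 and 19.5 CPM after, and its log2 fold change of −1.01 ± 0.37 missed the threshold (adjusted p = 0.0582). It passed without etoposide replicate 3 (−1.21, adjusted p = 0.0172). In HL60, MV411 and THP1 the log2 fold changes of MT2A were −0.15, −0.18 and −0.35, with adjusted p of 0.459, 0.132 and 0.0692.

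F36P stood apart from the other lines, because MT2A rose there. Its untreated libraries held 16.4, 16.0 and 14.9 CPM and its etoposide libraries 33.6, 24.6 and 49.1 CPM. The groups did not overlap, the rise was 2.27-fold (1.18 ± 0.22, adjusted p = 0.00106), and the replicates after etoposide differed widely. Without etoposide replicate 3 the log2 fold change was 0.88 (adjusted p = 0.00238), below the fold limit.

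MT1X fell in 6 lines and rose in none. In NOMO1 it went from 34.6, 38.1 and 37.6 CPM to 13.4, 9.91 and 13.5 CPM, a 2.99-fold fall (−1.58 ± 0.12, adjusted p = 1.3e-06). In MONOMAC6 it went from 4.69, 4.43 and 4.32 CPM to 1.47, 1.49 and 2.49 CPM, a 2.45-fold fall (−1.29 ± 0.19, adjusted p = 0.000104). In KASUMI1 it went from 5.74, 8.14 and 7.34 CPM to 2.14, 3.62 and 3.13 CPM, a 2.39-fold fall (−1.26 ± 0.21, adjusted p = 0.000591). The libraries before and after were separate in all of these lines.

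OCIAML3 was the fourth line in which MT1X was called lower, from 19.1, 21.1 and 20.5 CPM to 11.1, 6.66 and 9.49 CPM (2.22-fold, −1.15 ± 0.17, adjusted p = 0.000896). Without etoposide replicate 2, its lowest library, the log2 fold change was −0.98 (adjusted p = 0.000788). MT1X fell by less in MV411 (−0.70 ± 0.11) and MOLM13 (−0.47 ± 0.09). In F36P, HL60, NB4 and THP1 its log2 fold changes were 0.42, −0.09, 0.14 and −0.32, with adjusted p of 0.212, 0.716, 0.718 and 0.155.

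MT1G fell in all 7 lines in which it was tested. For KASUMI1 that outcome was fixed, because MT1G passed the filter there only through the untreated group. In NOMO1 its libraries held 126, 123 and 138 CPM before and 39.6, 36.4 and 45.8 CPM after, a 3.18-fold fall (−1.67 ± 0.10, adjusted p = 2.04e-07). In OCIAML3 they held 50.1, 48.7 and 48.5 CPM before and 14.8, 15.3 and 18.6 CPM after, a 3.02-fold fall (−1.60 ± 0.10, adjusted p = 1.2e-05). In MOLM13 they held 77.8, 72.0 and 67.2 CPM before and 34.6, 38.3 and 37.5 CPM after, a fall of 1.97-fold that lay just under the limit of a call (−0.97 ± 0.08, adjusted p = 7.68e-06) and above it without untreated replicate 3 (−1.03). Every untreated library of these lines lay above every etoposide library.

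At lower levels MT1G was called lower in MONOMAC6, from 3.11, 3.08 and 2.94 CPM to 1.03, 0.837 and 1.44 CPM (2.74-fold, −1.46 ± 0.20, adjusted p = 6.14e-05). In KASUMI1 MT1G went from 42 reads in all to 8, that is from 0.660, 0.736 and 0.822 CPM to 0.0874, 0.143 and 0.138 CPM (5.81-fold, −2.54 ± 0.37), a pair that had to be a fall. It also fell in MV411 (−0.75 ± 0.09, adjusted p = 1.47e-07) and in THP1 (−0.64 ± 0.16, adjusted p = 0.00606). In F36P, where the gene was not tested, it had 6 reads before and 13 after.

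MT1E fell in 5 lines and rose in F36P. In OCIAML3 it went from 62.4, 63.7 and 60.1 CPM to 28.0, 24.9 and 26.2 CPM (2.36-fold, −1.24 ± 0.08, adjusted p = 1.18e-05), and in NOMO1 from 103, 116 and 123 CPM to 54.0, 54.5 and 54.7 CPM (2.09-fold, −1.07 ± 0.09, adjusted p = 1.93e-06). MOLM13 came close to a call, with 60.8, 62.7 and 63.0 CPM before and 31.3, 33.6 and 36.1 CPM after (1.84-fold, −0.88 ± 0.08, adjusted p = 9.21e-06). The falls in MONOMAC6 (−0.75 ± 0.14) and MV411 (−0.41 ± 0.07) were smaller, and THP1 (−0.36 ± 0.14, adjusted p = 0.0538) and KASUMI1 (−0.49 ± 0.40, adjusted p = 0.311) did not pass.

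The rise of MT1E in F36P was at a low level, from 24 reads over the 3 untreated libraries to 105 over the 3 etoposide libraries. In CPM this was 0.677, 0.290 and 0.390 before and 2.26, 1.77 and 1.06 after (3.71-fold, 1.89 ± 0.39, adjusted p = 0.00197). This pair passed the filter only through the etoposide group and so had to be a rise. Its adjusted p is therefore no support for one. HL60 and NB4 had no MT1E read after etoposide either, which allows at most 0.0523 and 0.0485 CPM.

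MT1F was the metallothionein with rises in 2 lines. In NB4 its libraries held 5.18, 5.19 and 6.53 CPM before and 10.8, 14.4 and 15.0 CPM after, a 2.38-fold rise (1.25 ± 0.16, adjusted p = 8.08e-06). All 3 etoposide libraries were above all 3 untreated ones, while MT2A fell in the same cells. In F36P it went from 13 reads to 41, that is from 0.226, 0.406 and 0.111 CPM to 0.613, 0.908 and 0.483 CPM (1.41 ± 0.46, adjusted p = 0.0227). That pair passed the filter only through the etoposide group and so had to be a rise, and its adjusted p is no support for one. The call was lost when untreated replicate 1 (adjusted p = 0.0551), untreated replicate 3 (adjusted p = 0.0984) or etoposide replicate 2 (adjusted p = 0.0892) was left out.

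MT1F fell in NOMO1, OCIAML3 and MOLM13. In NOMO1 it went from 83.4, 86.5 and 96.7 CPM to 43.9, 41.3 and 46.7 CPM, a 2.02-fold fall at the limit of a call (−1.02 ± 0.09, adjusted p = 3.52e-06). Without untreated replicate 3 this was −0.96, and without etoposide replicate 2 it was −0.99. In OCIAML3 the libraries held 22.9, 24.4 and 21.4 CPM before and 12.3, 10.1 and 12.4 CPM after (1.98-fold, −0.98 ± 0.11, adjusted p = 0.000232), and this passed the fold limit when untreated replicate 3 (−1.05), etoposide replicate 1 (−1.03) or etoposide replicate 3 (−1.04) was left out. In MOLM13 it fell by 0.57 ± 0.08 on the log2 scale. In MONOMAC6, MV411 and THP1 the log2 fold changes were −0.07, −0.17 and −0.32, with adjusted p of 0.799, 0.138 and 0.0916.

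MTF1 was tested in all 10 lines and was called in 0 of them by edgeR or DESeq2, with an unadjusted p below 0.05 in 5. It rose in NOMO1, from 24.3, 24.8 and 23.0 CPM to 33.3, 32.9 and 27.7 CPM (1.30-fold, 0.38 ± 0.10, adjusted p = 0.00764), and in THP1, from 40.7, 40.6 and 42.6 CPM to 56.1, 53.0 and 53.6 CPM (1.31-fold, 0.39 ± 0.12, adjusted p = 0.0185). It fell in NB4, from 37.9, 36.1 and 39.0 CPM to 25.1, 26.8 and 25.6 CPM (1.46-fold, −0.54 ± 0.10, adjusted p = 0.000191), and in KASUMI1, from 45.4, 41.5 and 44.2 CPM to 35.4, 27.7 and 31.6 CPM (1.38-fold, −0.47 ± 0.11, adjusted p = 0.00354). The groups were separate in these 4 lines. In the other 6 its log2 fold change was between −0.27 in HL60 and 0.21 in F36P and did not pass.

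**Figure D4:**
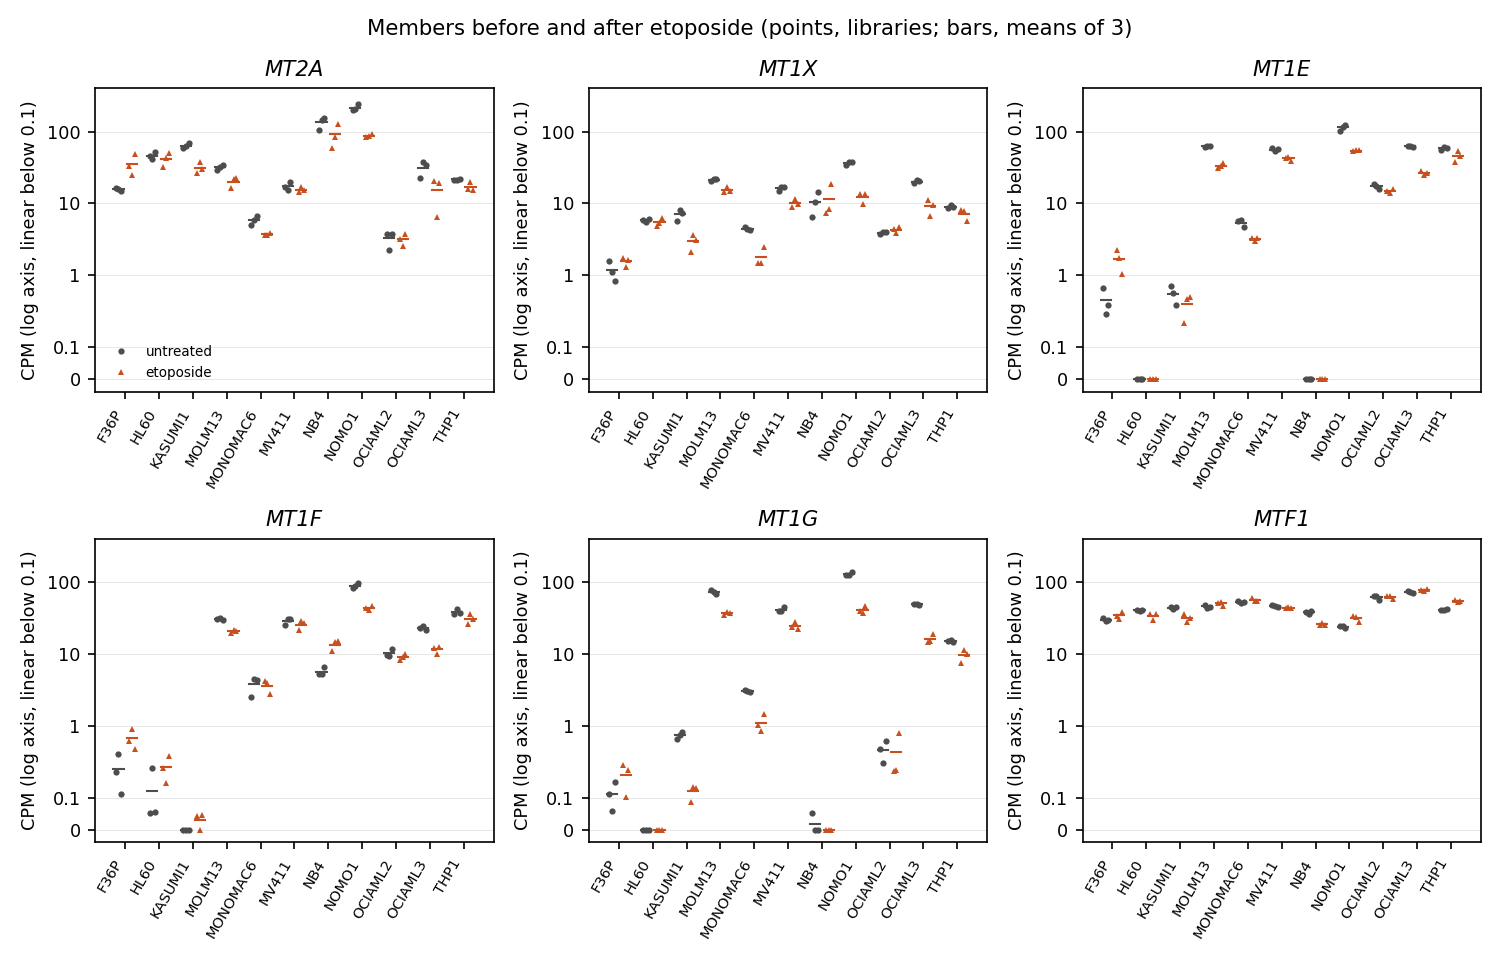
Level of each member in every library before (grey circles) and after etoposide (orange triangles) in the 11 lines (vertical axis, CPM on a log axis that is linear below 0.1; bars, means of 3). Most tested metallothioneins fell at FDR below 0.05 in NOMO1, OCIAML3, MOLM13, MONOMAC6, KASUMI1 and MV411, where 17.7% to 30.5% of all genes did. In THP1 1 of 5 fell, against 16.0% of genes. The etoposide points lie above the untreated ones for MT2A in F36P and MT1F in NB4.

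Seen by line, NOMO1 was the line in which all 5 metallothioneins were called lower, where 4.43% of the genes tested were called lower and 8.34% higher. In OCIAML3 3 of 5 were called lower, with 1.36% of genes lower and 7.18% higher, and in KASUMI1 3 of the 4 tested were (MT1G only through its untreated group), with 6.52% lower and 14.6% higher. In MONOMAC6 2 of 5 were called lower, where 4.47% of genes were lower and 8.53% higher.

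In F36P 3 of the 4 tested metallothioneins were called higher, of which MT1E and MT1F passed the filter only through the etoposide group and MT2A through both, and so were 24.3% of all genes tested in that line, with 6.67% called lower. NB4 had 1 of 3 called higher, with 13.2% of genes higher and 4.82% lower. No metallothionein was called in the 4 remaining lines. The genes called higher and lower there were 5.34% and 1.24% in HL60, 8.59% and 3.37% in MOLM13, 12.5% and 2.63% in MV411, and 6.38% and 3.46% in THP1.

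With no limit on the fold change, all 5 metallothioneins fell in NOMO1 and in MOLM13, where 23.9% and 28.1% of all genes did. In OCIAML3 4 of 5 fell and in MONOMAC6 4 of 5, where 17.7% and 30.5% of genes did. In MV411 3 of 5 fell and in KASUMI1 3 of the 4 tested, where 30.4% and 28.6% of genes did. In THP1 1 of 5 fell, against 16.0% of genes, in NB4 1 of 3, against 28.7%, and none did in F36P and HL60, where 25.0% and 15.0% of genes did. The summed level of the 5 genes after etoposide was 239 ± 12.3 CPM in NOMO1 against 584 ± 48.9 CPM before (SD, n = 3), and 39.9 ± 12.0 CPM in F36P against 17.8 ± 1.29 CPM before.

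The scaling moved the median of all genes in some lines. With library size alone in place of TMM it went from 0.09 to 0.34 on the log2 scale in F36P, from 0.03 to 0.20 in KASUMI1 and from 0.01 to 0.21 in NB4, and to 0.10 in HL60, 0.13 in MONOMAC6 and 0.14 in MV411. In F36P this changed the genes called higher and lower from 3862 and 1061 to 4548 and 600, in KASUMI1 the genes called higher and lower from 2084 and 932 to 2545 and 594, and in NB4 from 1817 and 666 to 2298 and 383. No member that passed the test in a line changed sign under this scaling.

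**Figure D5:**
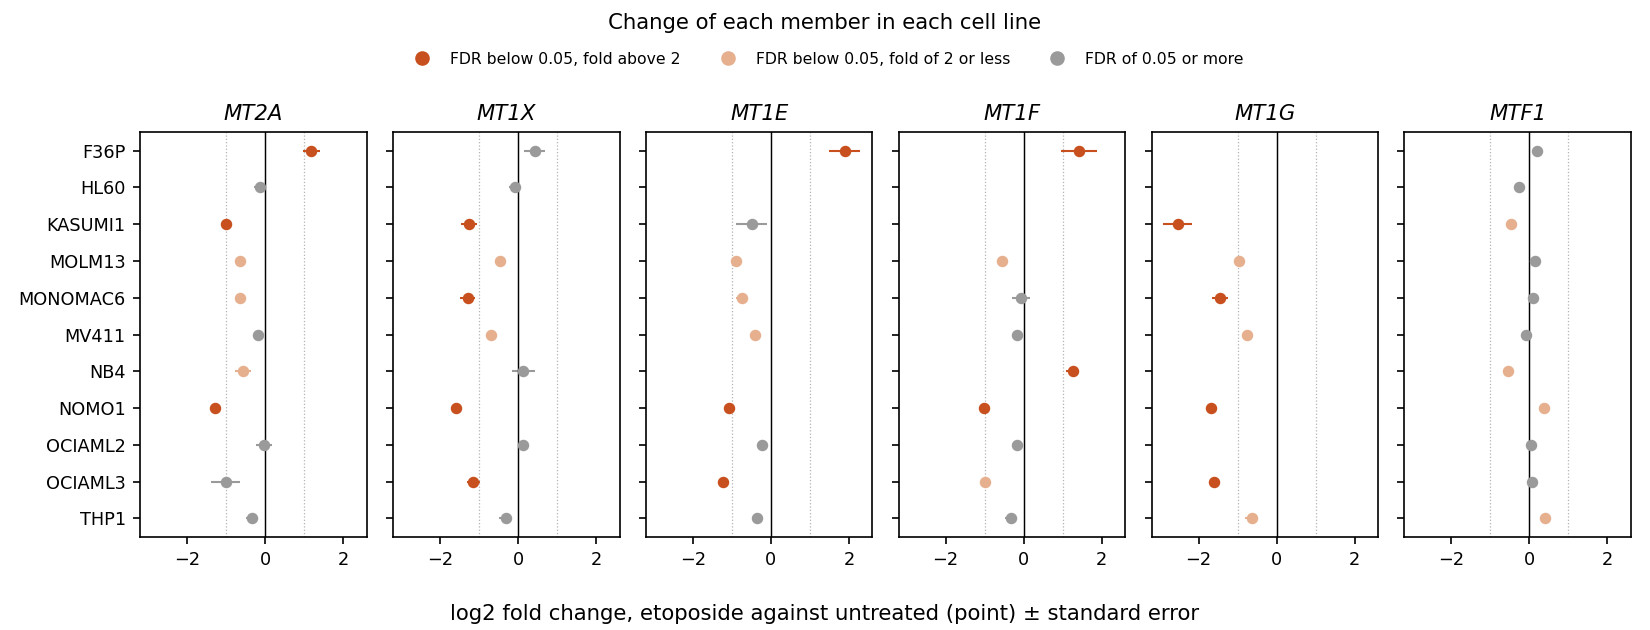
Log2 fold change after etoposide (horizontal axis) of each member in each line where it was tested. Points are shown ± a standard error derived from the F statistic of the edgeR test. Dark orange marks called pairs, light orange those that passed the FDR limit but changed no more than 2-fold, grey the rest. The 13 pairs called lower lie in NOMO1, OCIAML3, KASUMI1 and MONOMAC6, the 4 called higher lie in F36P and NB4, and MTF1 stays within 0.54 of 0.

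The responses differed between lines for all 6 members in 1 fit of the 60 libraries of 10 lines (quasi-likelihood F-test of the line by treatment terms), as they did for 74.5% of all genes tested. The adjusted p ran from 1.38e-12 for MT1F to 6.38e-07 for MT1X. Each line's response was then set against the mean response of the other lines, a test that 22.0% of all gene and line contrasts passed with 9 other lines. For MT2A, F36P lay above the others by 1.85 ± 0.25 on the log2 scale (adjusted p = 2.61e-08) and NOMO1 below by −0.99 ± 0.23 (adjusted p = 0.00091). For MT1X, F36P (1.19 ± 0.38, adjusted p = 0.0108) and NB4 (0.88 ± 0.23, adjusted p = 0.00334) lay above, and NOMO1 (−1.12 ± 0.22, adjusted p = 7.47e-05), KASUMI1 (−0.68 ± 0.26, adjusted p = 0.0461) and OCIAML3 (−0.62 ± 0.22, adjusted p = 0.0451) below.

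MTF1 differed from the other lines in 6 lines. It lay below them in NB4 (−0.57 ± 0.09, adjusted p = 2.49e-06), KASUMI1 (−0.49 ± 0.09, adjusted p = 1.77e-05) and HL60 (−0.29 ± 0.09, adjusted p = 0.0175). It lay above them in THP1 (0.46 ± 0.09, adjusted p = 5.82e-05), NOMO1 (0.37 ± 0.09, adjusted p = 0.00156) and F36P (0.26 ± 0.09, adjusted p = 0.0247). NOMO1 was thus above the other lines for MTF1 and below them for MT2A and MT1X, and F36P was above them for all 3.

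MT1E, MT1F and MT1G were at or near 0 in some lines, which leaves the mean over all 9 others undefined. For these genes the other lines were those in which the gene had been tested, a choice made after seeing the data, and 23.1% of all gene contrasts of this kind passed. For MT1F, NB4 lay above the 7 other lines by 1.52 ± 0.19 (adjusted p = 9.14e-09), while NOMO1 (−1.15 ± 0.16), OCIAML3 (−1.10 ± 0.17) and MOLM13 (−0.54 ± 0.16) lay below. For MT1E, OCIAML3 (−0.98 ± 0.14), NOMO1 (−0.81 ± 0.13) and MOLM13 (−0.49 ± 0.14) lay below the 7 others. For MT1G, where all lines fell, THP1 (0.88 ± 0.15), MV411 (0.76 ± 0.14) and MOLM13 (0.51 ± 0.14) fell less than the mean of the 6 others, and NOMO1 (−0.40 ± 0.15) fell more. The contrasts of MT1E and MT1F in F36P and of MT1G in KASUMI1 are not given, since these pairs passed the filter through 1 group only. They are part of the means above, with log2 fold changes of 1.89, 1.41 and −2.54. The differences above rest in part on these pairs, and contrasts without them were not run. A line above or below such a mean, as MOLM13 for MT1E, is thus not shown to differ from the remaining lines.

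In OCIAML2, whose etoposide libraries the study set aside, no member was called, and 0.0% of the 13604 genes tested were. The 5 members that could be tested had log2 fold changes between −0.22 for MT1E and 0.13 for MT1X, and their adjusted p was 0.998 for each. MT1E held 18.7, 17.3 and 16.1 CPM before and 15.0, 13.9 and 16.0 CPM after, close to each other without overlap. MTF1 held 63.1, 63.5 and 56.5 CPM before and 64.2, 64.7 and 57.7 CPM after. CDKN1A rose 0.73 ± 0.06 on the log2 scale in this line (adjusted p = 0.000289), below the fold limit. With the edgeR test 1 member, MT1E, and 456 genes in all had an unadjusted p below 0.05, and the DESeq2 Wald test and the edgeR exact test called none.

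The other metallothionein genes and pseudogenes of the annotation number 16, of which 9 had fewer than 10 reads in all 66 libraries and 4 passed the filter in some line. MT1H, a close relative of MT1G, was a gene of NOMO1, which held 96.8% of its reads. There it went from 60.9, 59.3 and 72.3 CPM to 18.2, 15.5 and 19.9 CPM (−1.84 ± 0.12, adjusted p = 3.18e-07), and in MOLM13 it fell from a mean of 1.87 to 0.586 CPM (−1.65 ± 0.27). MT1A had 99.8% of its reads in OCIAML3, where it went from 5.02, 6.06 and 4.97 CPM to 1.82, 1.52 and 1.74 CPM (−1.66 ± 0.15, adjusted p = 9.53e-05).

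MT1M, also of OCIAML3, fell from 0.839 to 0.317 CPM (−1.39 ± 0.49, adjusted p = 0.0498). The transcribed pseudogene MT1L fell in NOMO1 (−1.06 ± 0.28) and OCIAML3 (−1.19 ± 0.33) and did not pass in MV411 and THP1 (0.53 and −0.55, adjusted p of 0.241 and 0.252). MT3, known from brain, had 25 reads in all libraries together, the processed pseudogenes MT1XP1 and MT1P3 had 108 and 10, and MT4, known from squamous epithelium, had 4. The 6 calls in this group were falls, where 3.96% of all pairs of a gene and a line were called lower and 11.1% higher. Every tested pair of this group was called apart from MT1L in MV411 and THP1. But 3 of the calls (MT1H in MOLM13, MT1M and MT1L in OCIAML3) passed the filter only through the untreated group and so had to be falls.

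Genes that carry zinc or respond to the same signals were counted by lists, as pairs of a gene and 1 of the 10 lines. Beside them stand 11.1% called higher and 3.96% called lower over all genes. Pairs that passed the filter through 1 group only were not set apart in these counts. Of 14 zinc importers (SLC39 genes), 11 were tested in 109 pairs, of which 1 was called higher (0.917%) and 9 lower (8.26%), with a median log2 fold change of −0.24. SLC39A10, an importer of the plasma membrane, was called lower in 4 lines and had negative log2 fold changes in all 10, from −1.64 in F36P to −0.40 in OCIAML3. SLC39A11 was called lower in F36P (−1.41 ± 0.12) and KASUMI1 (−1.26 ± 0.09), and SLC39A14 (−1.92 ± 0.09) and SLC39A3 (−1.04 ± 0.11) in KASUMI1.

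Of 10 zinc exporters and vesicle loaders (SLC30 genes), 9 were tested in 60 pairs, with a median log2 fold change of −0.01. Of these pairs, 7 were called higher (11.7%) and 1 lower (1.67%). Untreated means were 0 CPM for SLC30A8 in F36P and 0.0569 and 0.373 CPM for SLC30A4 in F36P and OCIAML3. For SLC30A3 they were 0.299 CPM in MONOMAC6 and 0.451 CPM in KASUMI1. These pairs passed the filter only through the etoposide group and so had to be rises. The count called higher rests mostly on them. SLC30A3 rose from a mean of 1.18 CPM in MV411 (log2 fold change 2.75 ± 0.19) and was also called higher in KASUMI1 and MONOMAC6, and SLC30A4, at 1.43 CPM or less, in F36P, NOMO1 and OCIAML3. In F36P SLC30A8 went from 0 to 0.629 CPM and SLC30A10 fell from 22.9 to 11.2 CPM (−1.03 ± 0.14). SLC30A1, the exporter on which MTF1 is known to act, is named for that role. It was called in no line and fell in 6, most in NB4 from 43.3 ± 2.63 to 22.2 ± 1.00 CPM (−0.96 ± 0.10, adjusted p = 1.07e-06).

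The copper list, of which 11 of 12 genes were matched by name, also holds the regulators MTF2 and SP1, neither of them called in a line. It had 7 of 110 pairs called higher (6.36%) and 3 called lower (2.73%), with a median of 0.06. ATP7B, a copper exporter, fell in F36P from 97.4 to 40.8 CPM (−1.26 ± 0.12) and was called higher, at 1.93 CPM or less, in MOLM13 and MV411. CCS, the copper chaperone of superoxide dismutase, was called higher in NB4 (1.37 ± 0.12) and MOLM13 (1.03 ± 0.09), and SLC31A2, a copper transporter of lysosomes, in F36P (1.87 ± 0.18) and KASUMI1 (1.54 ± 0.12). SCO1, which delivers copper to cytochrome oxidase, was called lower in F36P (−1.46 ± 0.11) and KASUMI1 (−1.15 ± 0.10).

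Among metal and heat stress genes, 9 of 91 pairs were called higher (9.89%) and 3 lower (3.30%), with a median of −0.11. HMOX1, the heme oxygenase that heavy metals and oxidants induce, held 8 of the 9. It rose from 2.16 ± 0.181 to 23.4 ± 3.09 CPM in MOLM13 (3.43 ± 0.14) and from 1.57 ± 0.147 to 8.08 ± 1.23 CPM in NOMO1 (2.36 ± 0.18), where the metallothioneins fell, and from 1.28 ± 0.361 to 21.9 ± 3.87 CPM in F36P (4.08 ± 0.23), where MT2A rose. The heat shock gene HSPA6 was called higher in F36P (2.85 ± 0.16) and lower in HL60 (−1.14 ± 0.41), and HSPH1, a chaperone, was called lower in MOLM13 (−1.29 ± 0.12) and NB4 (−1.19 ± 0.12).

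Genes known to be induced by glucocorticoids had 20 of 78 pairs called higher (25.6%) and 5 lower (6.41%), with a median of 0.04. SGK1, a kinase, was called higher in 8 lines, and TSC22D3, a leucine zipper protein, and DUSP1, a phosphatase, in 5 each. ZBTB16, a transcription factor, was called lower in 5 lines, with a median log2 fold change of −1.27 over the 8 lines tested. TSC22D3 rose most in F36P, from 0.623 to 23.1 CPM (5.20 ± 0.20), and was also called higher in NOMO1 (1.55 ± 0.15) and KASUMI1 (1.28 ± 0.13), where MT2A was called lower.

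Over the 10 lines, the log2 fold changes of MT2A and MT1X had an r of 0.80, and those of MT2A and MTF1 an r of 0.09. MT2A and MT1E had an r of 0.94 over the 8 lines with both, and the r of MTF1 with the MT1 genes ran from −0.52 for MT1F (8 lines) to 0.61 for MT1G (7 lines). F36P and NOMO1 were the outermost lines for MT2A, and all these values come from the same libraries and are descriptions.

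By Pearson's r over the 11 untreated line means of log2(CPM + 1), among 13668 genes, the genes most like MT2A were PLEKHG3 (0.92), FAHD2B (0.91), MAPK11 (0.91), MTSS2 (0.88) and SPACA9 (0.86). Without NOMO1 and OCIAML2, the lines farthest from the median of MT2A, their r was 0.81 to 0.94. The genes most like MTF1 were ATXN7L1 (0.89), ISCA1 (0.89), ZNF124 (0.87), TMEM209 (0.86) and STX6 (0.86), and without NOMO1 and OCIAML3 their r was 0.53 to 0.83.

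By r over the 10 log2 fold changes, among 10542 genes, ASIC1 (0.97), ADCY3 (0.94), ENTREP3 (0.92), TBC1D1 (0.92) and VDR (0.92) were most like MT2A. Without F36P and NOMO1 their r was 0.42 to 0.88, the lowest for TBC1D1. NFX1 (0.96), MYO9A (0.92), PDE4D (0.89), SRPRA (0.88) and SMCR8 (0.88) were most like MTF1, and without KASUMI1 and NB4 their r was 0.63 to 0.90. With so many genes compared over so few lines, high values of r arise in any such ranking.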

How the data were processed

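Per the labels, each RNA came from 3 wells joined together and the library kit (TruSeq mRNA) keeps strand. STAR 2.5.3a then placed the reads on GRCh38.p7. The authors deposited STAR's counts of reads per gene, with no normalization, and the submitters' processing notes also name FastQC 0.11.5 and edgeR 3.20.1. Which count column of STAR was deposited is not given in the sources used here. In gencode release 44, 756 genes are enclosed by an exon on the other strand, and 484 of them had reads. The members, the lists of genes and the tests were chosen with earlier results of these data known.

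Each library listed 58037 identifiers, and the 45 pseudoautosomal duplicates of Y, which held 0 reads, were dropped. Names and positions came from gencode release 44 (GRCh38) for 56948 of the remaining 57992, and promoters from RefSeq. In R 4.3.3 with edgeR 4.0.16, the 3 untreated and 3 etoposide libraries of each line were compared by filterByExpr (minimum count 10, minimum total 15), TMM and the quasi-likelihood test, and p-values were adjusted by Benjamini-Hochberg over all genes that passed the filter in that line. A call needed an FDR under 0.05 together with more than a 2-fold change. The SE of a log2 fold change was derived from the test, as its absolute value divided by the square root of the F statistic. Responses were compared between lines in 1 fit of 60 libraries and untreated levels in 1 fit of 33, and CPM (counts scaled by library size and TMM factor) was normalized within a line for changes and over the 33 untreated libraries for levels. Levels of different genes were compared per kilobase of summed exon length, with the canonical transcript as the alternative. A group with no read may have had up to 3 reads over its 3 libraries, for counting error only. Libraries of a group all differed by more than sampling noise (66 pairs, lowest chi-square per degree of freedom 2.05).

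The replicate numbers were taken to pair the libraries in MOLM13, NB4 and OCIAML2. There all 3 pairs of equal number deviated together from their groups (r over 0.1, lowest 0.206, 0.220 and 0.125). The main tests did not use this pairing, which entered only the alternative with the replicate number as a block. The lowest correlation was 0.0813 in MONOMAC6, 0.0689 in MV411 and under 0 in the other 6 lines.

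Alternatives were RLE normalization, library size alone, no filter or a mean of at least 5 CPM, DESeq2 1.42.0, the edgeR exact test, the replicate number as a block, 1 fit of 60 libraries, no fold limit and each replicate left out. The canonical transcript length, the omission of F36P or NOMO1 from the counts of calls, and the contrasts over tested lines for MT1E, MT1F and MT1G were added after seeing the data. Members were named in every line and the other metallothionein genes by counts and range, with at most 4 genes of each list, those called in the most lines, and the 5 genes most like MT2A and MTF1 among those with a mean of at least 1 CPM. SLC30A1 was added for its role. The lists were zinc exporters, zinc importers, copper handling, metal and heat stress, glucocorticoid-induced genes and a drug check, with markers of myeloid, erythroid, T, B, and stromal and epithelial cells. The fits were tested on simulated data. The rest ran in Python (3.11.15), with pandas 2.3.3, numpy 2.4.6 and scipy 1.17.1, and matplotlib 3.10.9 drew the figures.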

Additional observations from a re-analysis of the deposited data

Results flagged for a closer look

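The response to etoposide differed between the 10 lines for every member in the test of the line by treatment terms. The adjusted p was 1.38e-12 for MT1F, 1.33e-10 for MT1E, 4.03e-10 for MTF1, 6.34e-09 for MT1G, 1.79e-07 for MT2A and 6.38e-07 for MT1X, among 19974 genes tested, of which 74.5% passed. Without F36P, the line in which MT2A rose, the adjusted p of MT2A was 0.00368. Each line had its own dose of etoposide, so the line and the dose cannot be told apart. Groups of 3 libraries are too small for the check of single libraries that stand apart.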

How the results depend on the processing

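The number of member and line pairs called higher was 4 and went to 2 with a filter at a mean of 5 CPM and to 1 without F36P, which held 3 of the 4. The number called lower was 13 and went to 8 with that filter, to 28 with no fold limit and to 8 without NOMO1, which held 5. The filter at 5 CPM tests fewer genes by construction. With 1 replicate of the untreated or the etoposide group left out in every line, the counts were 3 to 4 higher and 11 to 14 lower. With the replicate block, 4 pairs were called higher and 13 lower, and it changed no call in the paired lines. No member was called in OCIAML2 under any alternative, and all 6 members differed between lines in response and in untreated level under each alternative run. Of 482 values of single pairs under alternatives, 456 kept their direction and their side of the call, 15 lost it, 11 gained it and none changed sign. Those that changed were MT2A in F36P, KASUMI1 and OCIAML3, MT1F in F36P, NOMO1 and OCIAML3, MT1X in OCIAML3 and MT1G in MOLM13, most of them at a fold change near 2. MT2A in OCIAML3 passed with RLE normalization (adjusted p = 0.0471), no filter (0.0121), the exact test (0.0252) and 1 fit of 60 libraries (0.000561), and MT1F in F36P missed with DESeq2 (0.0557). The cause of these changes was not tested. MT1E, MT1F and MT1G could not be tested where a line held too few of their reads.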
